A study of Rattus norvegicus with 2 samples.

Results

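The 10 genes described here code for feedback inhibitors of mitogen-activated protein (MAP) kinase signalling: the dual-specificity phosphatases Dusp1, Dusp4, Dusp5, Dusp6 and Dusp10, the Sprouty genes Spry1, Spry2 and Spry4, and the Spred genes Spred1 and Spred2. They were chosen by name, and all 10 were found among 22093 genes with a symbol of their own on a whole-transcript rat array, each with 1 probe set. RNA came from neural stem cells (NSCs) of SD rats, taken from whole brain at embryonic day 13.5 and grown as neurospheres for 10 days in serum-free medium with 25 ng/mL bFGF and 25 ng/mL EGF. One group, called co-culture, was then seeded on ectodermal mesenchymal stem cells (EMSCs) at passage 3 from rats transgenic for green fluorescent protein (GFP), kept for 14 days in medium with 10% foetal bovine serum, and separated from the feeder cells by fluorescence-activated sorting. The other group, called mono-culture, was kept for 14 days without EMSCs and served as control. The labels do not spell out the mono-culture medium and do not mention sorting for it, so feeder cells, medium and sorting cannot be told apart here. Each group is a single array, so the differences below were not checked in replicates and could not be tested.

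Growth factors that bind receptor tyrosine kinases activate Ras, which starts a kinase relay through Raf and MEK to the kinase ERK. Stress and cytokines act more on the parallel kinases JNK and p38. Active ERK drives transcription of genes that then switch the pathway off again: dual-specificity phosphatases remove phosphate from the MAP kinases themselves, while Sprouty and Spred proteins act further up, between the receptor and Raf. EGF and FGF keep neural stem cells dividing through this pathway, and in the embryo Dusp6, Sprouty and Etv genes are known to be expressed where FGF signals act.

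Levels are given as log2 RMA values. A difference is the level in co-culture less that in mono-culture, so that 1 stands for 2-fold. A gene was kept if the higher of its levels reached the median gene level of 4.97, which left 11849 genes. The dim end of the array was marked by a level of 6.64, under which 95% of the values of 1153 negative control probe sets lay, called the negative control level below. Differences of 399 positive control probe sets, whose central 95% ran from -1.15 to 0.61, give a measure of how far probe sets differed between the arrays, although their own biology is not known here. On the low side this range reaches past 2-fold. Where a gene had several probe sets past the limit, as 478 genes did, their differences scattered around the gene mean with a standard deviation of 0.26. In bulk RNA, fewer cells of a type and less RNA per cell cannot be told apart.

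Of the 10 feedback inhibitors, Dusp1 and Dusp10 passed 2-fold upward in co-culture, none was 2-fold lower, and 8 lay within 2-fold. Among all kept genes 5.04% were higher by that much and 5.54% were lower by that much. The limit of 4.97 was reached by 9 of the 10 genes, all but Dusp4. The differences ran from -0.59 for Dusp6 to 2.79 for Dusp1, with a median of 0.16 over all 10 genes, against -0.06 over all kept genes. The median was also 0.16 over the 9 members that were kept. Of these 9 genes 6 had a value above 0, against 42.3% of all kept genes. Among the 6, Dusp5, Spry1 and Spry2 lie under the negative control level on both arrays, as does Spry4 among the 3 below 0. The 8 genes within 2-fold all lay inside the central range of the positive controls, and Dusp1 and Dusp10 lay outside it.

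**Figure D1:**
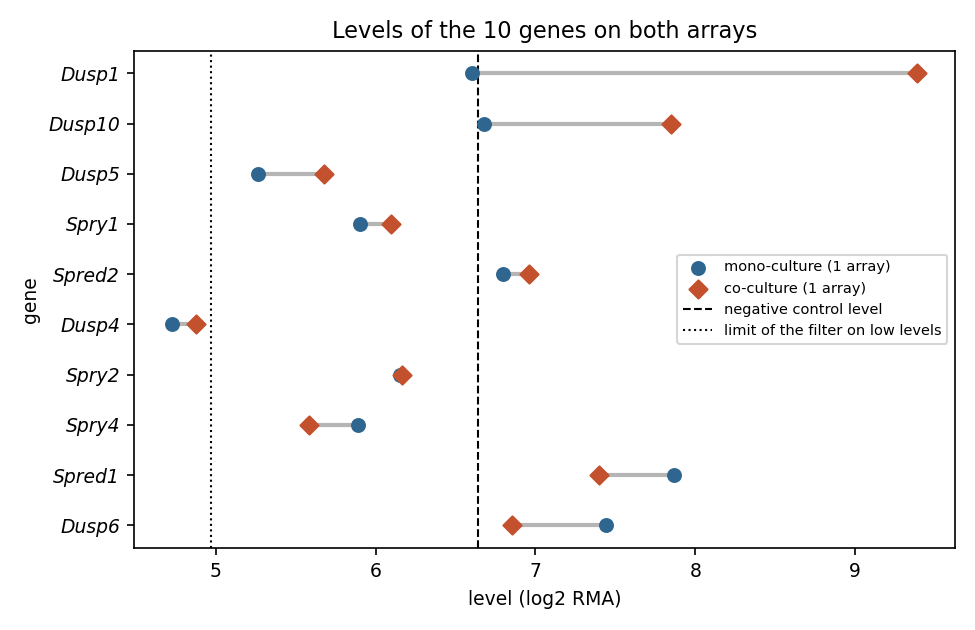
Levels of the 10 feedback inhibitors on the mono-culture array (circles) and the co-culture array (diamonds), in log2 RMA units, ordered by difference, with the limit of the filter (dotted, 4.97) and the negative control level (dashed, 6.64). Dusp1 and Dusp10 have the long bars, and Dusp4, Dusp5, Spry1, Spry2 and Spry4 lie left of the dashed line on both arrays. Levels of different genes come from different probes and are not to be ranked against each other.

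Dusp1 codes for MKP-1, a nuclear phosphatase that acts on p38, JNK and ERK and is itself an immediate early gene. Its level was 9.39 in co-culture against 6.60 in mono-culture. The difference of 2.79 is 6.91-fold, and it ranked 96 of 11849 kept genes counted from the highest. The mono-culture level lay just under the negative control level and the co-culture level far above it. With levels under 6.64 raised to 6.64 the difference was 2.75. Dusp10 codes for MKP-5, a phosphatase that prefers JNK and p38 over ERK. Its level was 7.85 in co-culture against 6.68 in mono-culture, a difference of 1.17 or 2.25-fold. The mono-culture level of Dusp10 lay just above the negative control level of 6.64, and its co-culture level lay further above. Of the kept genes, 1.84% had a larger absolute difference than Dusp1 and 8.38% a larger one than Dusp10. Dusp4, which codes for the nuclear phosphatase MKP-2, was dim on both arrays, at 4.88 in co-culture against 4.73 in mono-culture. Both of its levels were under the limit of the filter, so the difference of 0.15 carries little information about Dusp4.

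The 250 bases before the annotated start of Dusp1 and of Dusp10, the genes past 2-fold, are shown here from RefSeq, build GRCr8, as the plus strand of chr10:17184603-17184852 and chr13:98145643-98145892. Capitals mark matches, on either strand, to the cyclic AMP response element (CRE, TGACGTCA), the AP-1 motif (TGANTCA), the ETS core (CGGAAG) or the CArG box, the motif of serum response factor.
Dusp1: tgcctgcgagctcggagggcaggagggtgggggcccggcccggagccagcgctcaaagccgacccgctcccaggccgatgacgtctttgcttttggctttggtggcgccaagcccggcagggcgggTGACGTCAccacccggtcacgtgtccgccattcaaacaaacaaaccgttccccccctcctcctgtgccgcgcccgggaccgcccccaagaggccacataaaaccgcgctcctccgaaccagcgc
Dusp10: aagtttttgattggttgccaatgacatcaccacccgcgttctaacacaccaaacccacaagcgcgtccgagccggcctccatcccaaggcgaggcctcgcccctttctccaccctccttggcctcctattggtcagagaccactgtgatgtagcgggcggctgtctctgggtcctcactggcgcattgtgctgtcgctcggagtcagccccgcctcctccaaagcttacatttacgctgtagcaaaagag
The Dusp1 window holds 1 CRE, from 124 to 117 bases before the start, and an E-box (CACGTG) from 107 to 102 bases before it. A CRE stood in 1.59% of 33469 rat promoter windows of the same length, and of the 9 feedback inhibitors with a window in Dusp1 alone. The Dusp10 window held none of the 4 motifs marked with capitals, and of the other motifs searched only the GC box (GGGCGG), which 30.5% of all windows had. These matches describe the letters of the windows and not the binding of a factor.

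Dusp5 and Dusp6 code for phosphatases that act on ERK and spare JNK and p38, Dusp5 in the nucleus and Dusp6, or MKP-3, in the cytoplasm. Dusp6 was 6.85 in co-culture against 7.44 in mono-culture, above the negative control level on both arrays. Its difference of -0.59, a level in co-culture 0.665 times that in mono-culture, was the lowest of the 10 genes, and 20.4% of kept genes differed by more in either direction. Dusp5 was 5.68 in co-culture against 5.26 in mono-culture, a difference of 0.42 with both levels under 6.64. The pair of ERK phosphatases had differences of opposite sign, each short of 2-fold, but at these dim levels the sign of Dusp5 carries little information. Their promoter windows are shown because Dusp6 had the lowest difference and Dusp5 was the only one of the 9 genes with a window that had a CArG box. They are the plus strand of chr1:262543524-262543773 and chr7:35979354-35979603, build GRCr8, with capitals as before.
Dusp5: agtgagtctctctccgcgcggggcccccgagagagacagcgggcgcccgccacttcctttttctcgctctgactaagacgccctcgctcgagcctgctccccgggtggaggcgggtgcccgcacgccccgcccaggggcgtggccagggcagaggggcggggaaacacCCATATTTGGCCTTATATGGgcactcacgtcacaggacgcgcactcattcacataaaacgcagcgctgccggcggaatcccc
Dusp6: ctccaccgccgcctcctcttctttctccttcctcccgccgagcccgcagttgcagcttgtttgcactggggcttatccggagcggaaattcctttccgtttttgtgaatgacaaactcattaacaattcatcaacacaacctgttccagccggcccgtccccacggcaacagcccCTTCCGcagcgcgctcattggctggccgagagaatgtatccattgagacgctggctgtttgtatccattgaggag
Dusp5 carried 2 CArG boxes side by side, the first from 82 to 73 and the second from 72 to 63 bases before the start. At least 1 CArG box was found in 501 of the 33469 windows, and 0.0209% of windows held at least 2. The Dusp6 window held 1 ETS core, read on the other strand, from 75 to 70 bases before the start. The only other feedback inhibitor with an ETS core was Spred2, from 43 to 38 bases before the start, against 13.9% of all windows. The longer ETS motif CCGGAAGT (3.10% of windows), AP-1 (6.34%) and the TATA box TATAAA (12.9%) matched in none of the 9 genes with a window, and the GC box matched in 8 of these 9. Windows were found for Dusp1, Dusp5, Dusp6, Dusp10, Spry1, Spry2 (with 2 annotated starts), Spry4, Spred1 and Spred2.

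Sprouty proteins are induced by growth factors and hold back Ras activation below the receptor. Spry2 also binds Cbl, which marks receptors for degradation. Spry1 was 6.10 in co-culture against 5.90 in mono-culture, a difference of 0.20. Spry2 was 6.17 and 6.15, a difference of 0.02, and 95.8% of kept genes differed by more. Spry4 was 5.58 and 5.89, a difference of -0.30. All 3 Sprouty genes lay under the negative control level on both arrays, so these arrays give little precision for differences of this size in the Sprouty family.

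Spred proteins bring neurofibromin, which switches Ras off, to the membrane. Spred1 was 7.40 in co-culture against 7.87 in mono-culture, a difference of -0.47 or 1.38-fold. Spred2 was 6.96 and 6.80, a difference of 0.16 or 1.12-fold. Both genes exceeded the negative control level on both arrays, and both differences were smaller than those of Dusp1 and Dusp10.

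**Figure D2:**
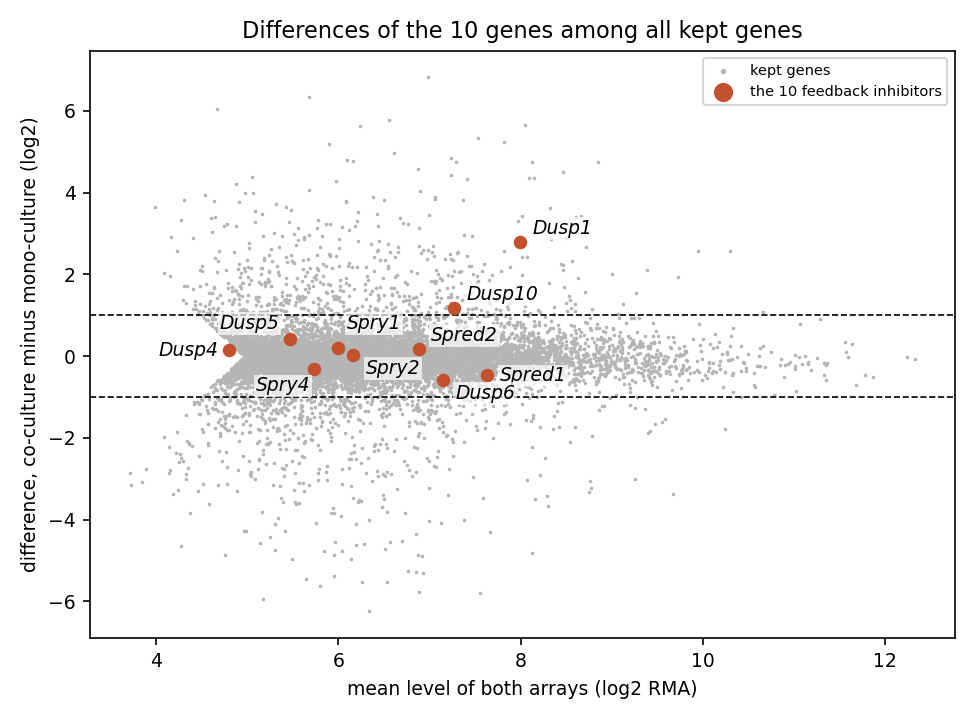
Difference in log2 level between co-culture and mono-culture (vertical) against the mean level of both arrays in log2 RMA units (horizontal), for 11849 kept genes in grey and the 10 feedback inhibitors in colour. Dashed lines mark 2-fold; Dusp1 at 2.79 and Dusp10 at 1.17 lie above the upper line, the other 8 genes lie between the lines, and Dusp4 lies below the filter that the grey genes passed.

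The other MAP kinase phosphatases Dusp2, Dusp7, Dusp8, Dusp9 and Dusp16 were all higher in co-culture by value, and 1 of the 4 that were kept was past 2-fold. That gene was Dusp2, a nuclear phosphatase of immune cells, at 5.08 in co-culture against 4.02 in mono-culture. The difference was 1.05, and both levels lie under the negative control level. The call was lost with loess, with levels raised to 4.97 or to 6.64, and with the filter set at the 75th percentile of gene levels. Dusp7, a cytoplasmic ERK phosphatase related to Dusp6, was bright, at 9.46 in co-culture against 9.15 in mono-culture, a difference of 0.30. Dusp8 and Dusp16, which act on JNK and p38, each differed by 0.11, and the dim Dusp9 by 0.22. Of 11 atypical dual-specificity phosphatases 7 were kept and none passed 2-fold. Dusp19, Dusp22, Dusp15 and Dusp18 had the largest differences of this list, at -0.51, -0.49, 0.38 and 0.34. The levels of Dusp19 and Dusp22 lie under the negative control level on both arrays, as does the mono-culture level of Dusp18.

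Among 14 measured genes for other inhibitors of receptors and Ras, all were kept and all lay within 2-fold, with 7 above and 7 below 0. Lrig1, a membrane protein that lowers EGF receptor levels, was 5.81 in co-culture against 6.63 in mono-culture, a difference of -0.82. Both of these levels lie under the negative control level. Errfi1, an intracellular inhibitor of the EGF receptor, was 8.59 and 8.00, a difference of 0.59. Rasal2, which codes for a Ras GTPase-activating protein, differed by 0.51 and Cbl by -0.43. The remaining relatives of the members differed less: Spry3 by -0.30, Spred3 by -0.05, and Il17rd, which codes for the FGF pathway inhibitor Sef, by 0.29.

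The kinase relay that the members act on differed little in level. Of 26 measured genes of the Ras-ERK cascade 25 were kept and all 25 lay within 2-fold, with a median difference of -0.01 and a range from -0.73 to 0.75. Both MEK genes were near 0, with Map2k1 at 0.16 and Map2k2 at 0.06. The largest differences of the list were those of Rras2 (0.75), Mknk1 and Mknk2 (both -0.73) and Rras (-0.59). Both levels of Mknk1 lie under the negative control level, as does the co-culture level of Mknk2. Rras2 and Rras code for Ras relatives, and Mknk1 and Mknk2 for kinases that ERK and p38 activate. In the JNK and p38 cascade 17 of 18 genes were kept, 2 were at least 2-fold lower and none was 2-fold higher. Map3k1, a kinase upstream of JNK, differed by -1.35 and Mapk10, which codes for the neural JNK isoform JNK3, by -1.10. Their co-culture levels of 5.48 and 6.42 lie under the negative control level, and with levels raised to it neither passed 2-fold. The difference of Mapk10 lies inside the central range of the positive controls, that of Map3k1 outside it. Map2k6 and Map2k3, which code for p38 activators, differed by -0.83 and 0.69, with levels under the negative control level on both arrays.

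Genes that ERK is known to induce went both ways. Of 19 kept genes, Fos, Fosb, Egr2, Egr1 and Ier2, 5 in all, passed 2-fold upward, and 2 passed it downward, Etv1 and Hbegf. The median was 0.25, and Hbegf was named after its value was seen. The differences of Etv1 and Hbegf, -1.08 and -1.02, lie inside the central range of the positive controls, which reaches -1.15. The upward count stayed at 5 with levels raised to 6.64, while the downward count was 1 there and under quantile normalization, loess and centring on kept genes; the co-culture level of Hbegf, 6.18, lies under 6.64. Fos, a component of AP-1, was 9.73 in co-culture against 7.39 in mono-culture, a difference of 2.33. Fosb differed by 2.07, and the zinc finger factors Egr2 and Egr1 by 1.99 and 1.28. These early genes were thus higher in co-culture, as Dusp1 was. The Etv factors, known in embryos as targets of FGF signalling, had values below 0, as had Dusp6, Spred1 and Spry4. Spry1, Spry2, Spred2 and Il17rd lay above 0, Spry2 by only 0.02. The levels of Spry1, Spry2, Spry4 and Il17rd lie under 6.64 on both arrays, so the signs of these genes carry little information. Il17rd was 5.04 in co-culture against 4.76 in mono-culture. Etv1 was 6.84 in co-culture against 7.92 in mono-culture, a difference of -1.08. Etv5 differed by -0.75 and Etv4 by -0.35, both with levels under the negative control level on both arrays. The G1 cyclin gene Ccnd1 was 8.52 and 9.15, a difference of -0.63.

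**Figure D3:**
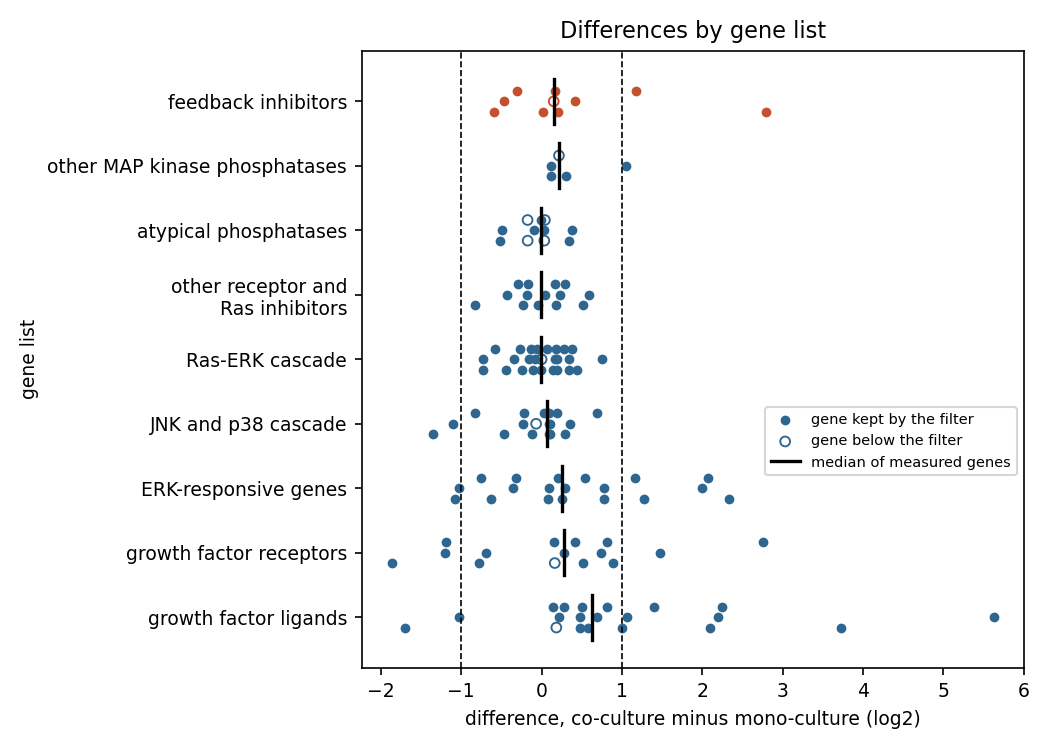
Difference in log2 level between co-culture and mono-culture for each measured gene (points, open where the gene is below the filter) in the feedback inhibitors and 8 related lists, with the median of each list (bar) and 2-fold marked by dashed lines. All kept genes of the Ras-ERK cascade lie between the dashed lines, while ERK-responsive genes, receptors and ligands spread past them on both sides.

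Among receptors and ligands upstream of the feedback inhibitors more genes passed 2-fold than in the relay. Of 14 kept growth factor receptors 2 passed 2-fold upward, Pdgfrb (2.75) and Erbb3 (1.47), and 3 passed it downward, Ntrk2 (-1.86), Ntrk3 (-1.20) and Egfr (-1.19). Egfr, the receptor for the EGF in the neurosphere medium, was 5.99 in co-culture against 7.18 in mono-culture. With levels raised to 6.64, 1 receptor was 2-fold higher and 1 lower, with a median of 0: the mono-culture level of Erbb3 (6.04), the co-culture level of Egfr and both levels of Ntrk3 (5.40 and 6.60) lie under that mark. Among FGF receptor genes, Fgfr1 was 8.49 in co-culture and 8.21 in mono-culture, Fgfr2 7.76 and 6.88, and Fgfr3 5.68 and 6.45. Their differences were 0.28, 0.89 and -0.77. Both levels of Fgfr3 lie under 6.64, so its sign carries little information. Of 19 kept ligand genes 7 passed 2-fold upward and 2 downward, and their median was 0.69. The 2 downward were Fgf2 (-1.71) and Hbegf (-1.02). Fgf2 was 6.66 in co-culture against 8.36 in mono-culture, above the negative control level on both arrays. The largest differences were those of the mesenchymal growth factor Fgf7 (5.63), the EGF receptor ligand Ereg (3.72), the mesenchymal growth factor Fgf10 (2.25) and the EGF receptor ligand Btc (2.19). Their mono-culture levels of 3.42, 3.45, 4.71 and 5.21 lie well under the negative control level, so the sizes depend on the background. With levels raised to 6.64, 1 ligand was 2-fold higher and 1 lower, with a median of 0, and the downward count was also 1 under quantile normalization, loess and centring on kept genes.

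Markers of other cells also differed between these arrays. The feeder cells are mesenchymal. Of 12 mesenchymal markers 11 passed 2-fold upward in co-culture, led by Lum (5.20), Acta2 (4.76), Col1a1 (4.75) and Col1a2 (4.50). Their summed level on the linear scale was 11995 in co-culture against 1120 in mono-culture, and 11 of the 12 exceeded the negative control level in co-culture and 3 in mono-culture. Of 12 microglia and macrophage markers 11 were at least 2-fold lower, among them C1qb (-5.79), Csf1r (-5.77), Laptm5 (-5.32) and Tyrobp (-4.90). Their summed linear level was 481 in co-culture against 8088 in mono-culture, with 1 and 10 of the 12 above the negative control level. Of 10 measured genes known to be induced when tissue is dissociated, 9 lay above 0 and 1 below, at -0.73. Of the 10, 4 passed 2-fold upward, Fos, Ier2 (1.17), Egr1 and Atf3 (1.04), and none was 2-fold lower. The summed linear level of all 10 was 3199 in co-culture against 1470 in mono-culture, and 4 of the 10 stand on the ERK-responsive list too. Among 9 measured neural stem cell markers, 5 exceeded the negative control level on both arrays, and Pax6 and Prom1 were below the filter on both. Of the 7 kept, 3 passed 2-fold downward, Slc1a3 (-2.50), Fabp7 (-1.95) and Sox9 (-1.66), and 6 lay below 0, whereas Sox2 differed by -0.14 and Nes by 0.80. Astrocyte markers were lower too, with 5 of 7 kept past 2-fold downward, among them Mlc1 (-3.26) and Gfap (-2.95), and 1 upward. Of 5 kept neuron markers 2 passed 2-fold downward, and of 7 oligodendrocyte lineage markers none passed it. RMA gives no level of 0, so no marker stands at 0. The part of these cells, and of sorting, in the differences of Dusp1, Dusp10 and the other feedback inhibitors was not tested.

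The size of each member's difference was recomputed under other processing. Dusp1 stayed between 2.75 and 2.88 and Dusp10 between 1.17 and 1.23 over all alternatives tried. Other probe set rules could not move any member, since each has 1 probe set, and centring on all genes left every value unchanged. Dusp6 stayed between -0.59 and -0.53, Spred1 between -0.47 and -0.41 and Spred2 between 0.16 and 0.23. For Dusp4, Dusp5, Spry1, Spry2 and Spry4 the difference was 0 once levels were raised to the negative control level, since both of their levels lie under it.

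**Figure D4:**
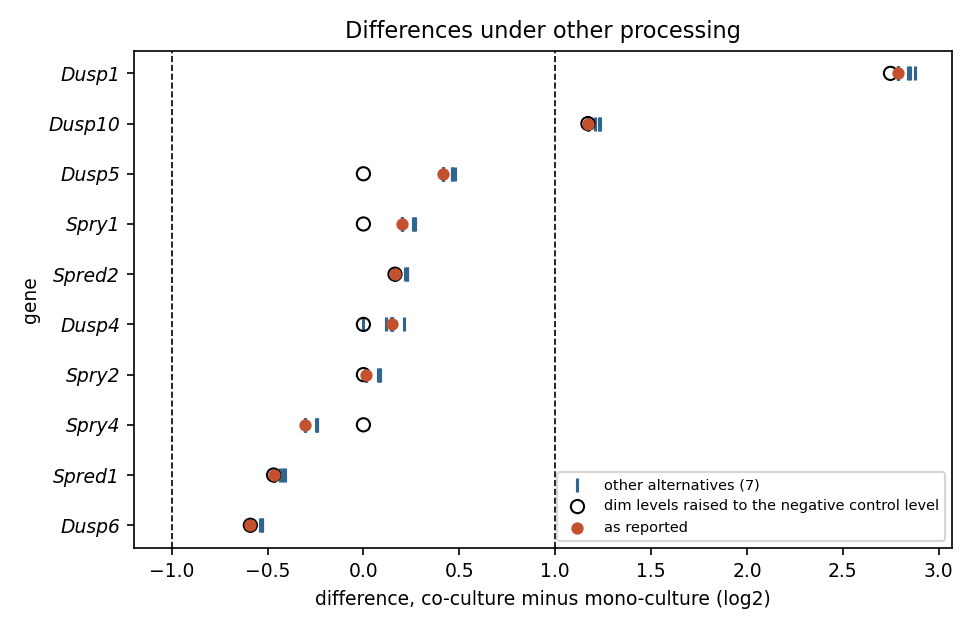
Difference in log2 level of each of the 10 feedback inhibitors as reported (filled points), under 7 other alternatives (ticks) and with levels under 6.64 raised to 6.64 (open circles), with 2-fold marked by dashed lines. Dusp1 and Dusp10 lie right of the upper line throughout, and the open circles of 5 genes lie at 0. Each gene has 1 probe set, so ticks of other probe set rules equal the reported values, as do those of centring on all genes.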

How the data were processed

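Per the labels' protocols, biotin-labelled cDNA was made from total RNA of 1 co-culture and 1 mono-culture sample, and each sample has 1 array. Log2 levels were deposited by the authors, and RMA (background correction, quantile normalization across arrays, probe summary) is named in the submitters' processing notes; the software that ran it is not given in the sources used here. Quantile normalization hides a change in total RNA, and RMA shrinks differences between low levels. The number of arrays limits the precision, and no scanner output was analysed.

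Of 70580 rows, 23446 probe sets had 1 gene symbol in the platform annotation and 505 had several, which were left out. Some genes of the lists are not reported here. Probe sets of a gene were averaged. The Entrez IDs of all 10 members carry the same symbols in GRCr8. No p-value was computed, since each group is 1 array. Counts at 2-fold are over kept genes and read against the same count over all kept genes. The members, lists and naming rule (all members, up to 4 largest differences per list, and a fixed set of pathway genes) were chosen with earlier results of these data known. Sox2, Nes, Pax6, Prom1, Hbegf and Fgf2 were named outside this rule, after their values were seen. The counting was tested on simulated data. Promoter windows are from RefSeq tables. Python 3.11.15, pandas 2.3.3, statsmodels 0.14.6 and limma 3.58.1 in R 4.3.3 were used. Alternatives were centring, quantile normalization, loess (span 0.4), other probe set rules, floors, thresholds and filters.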

Additional observations from a re-analysis of the deposited data

How the results depend on the processing

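Centring on all genes or on kept genes, quantile normalization, loess, other probe set rules, floors and other filters kept the count of feedback inhibitors at 2 higher and 0 lower. The probe set rules could not change this count, since each member has 1 probe set, and centring on all genes shifted no value. The median of the 10 genes lay between 0 and 0.35, the latter the mean in place of the median. At 4-fold 1 member was higher, and at 1.5-fold 1 was lower, Dusp6. With levels raised to the negative control level of 6.64, an alternative chosen after seeing the data as was centring on kept genes, the differences of Dusp5 and Spry4 became 0 by construction. Under that floor 201 kept genes were 2-fold higher and 188 lower, against 597 and 657 as reported. At 1.5-fold these counts were 1095 and 1347, and at 4-fold 213 and 226. In the 8 related lists together, 15 genes were higher and 8 lower as reported, 7 and 3 with the floor at 6.64, 26 and 17 at 1.5-fold, and 8 and 0 at 4-fold. No paired analysis was possible because each group has 1 array. Signal over background limits Dusp4, Dusp5 and the Sprouty genes.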
